A study of Mus musculus with 4 samples.

Results

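The genes described here are those of the HoxB, HoxC and HoxD clusters, taken as every probe set of the array whose annotation gave exactly 1 symbol made of Hoxb, Hoxc or Hoxd and a number. This rule found 25 probe sets for 22 genes among 20393 probe sets with 1 symbol, which cover 12394 genes. HoxB had 10 probe sets for 9 of its 10 genes in RefSeq, HoxC 8 for 6 of 9 and HoxD 7 for 7 of 9. Hoxb8, Hoxd3 and Hoxd4 lay only on 3 probe sets that name a pair of Hox genes, and Hoxc10, Hoxc11 and Hoxc12 were not analysed here.

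The cells came from bone marrow of mice with the Mll-AF4stop knock-in, an Mll-AF4 fusion construct meant to be silent until the recombinase Cre acts on it. The mice received 5-FU (5-fluorouracil, a drug that kills dividing cells), and after 5 days their marrow was infected in culture with 1 of 2 retroviruses, Cre-GFP or a control with GFP. Infected cells were sorted by GFP 2 days later, grown for 14 days in cytokines for lymphoid progenitors, and 20 ng of total RNA was amplified for each array. Each group had 2 arrays, called Cre-GFP 1 and 2 and control 1 and 2. Both groups share the knock-in allele, the 5-FU, the infection and the culture. For the control virus the labels conflict: the design text has MIG-Cre, the samples themselves a GFP control, which is the reading used here. Had that virus carried Cre, both groups would hold recombined cells. The labels give neither the age of the mice nor whether arrays of 1 group came from separate mice or cultures, so the p-values cover array-to-array spread alone, which may be technical.

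Hox genes encode transcription factors that share a DNA-binding homeodomain and give cells of the embryo their position along the body. In mammals they lie in 4 clusters, HoxA to HoxD, and genes with the same number in different clusters are paralogs, copies of an ancestral gene. Genes with low numbers act towards the head and genes with high numbers towards the tail. Blood stem and progenitor cells use mainly HoxA and HoxB genes, MLL is the histone methyltransferase that keeps Hox genes active, and leukemias with MLL fusions are known for high HoxA genes.

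No HoxB, HoxC or HoxD gene was called different between Cre-GFP and control. All 25 log2 differences lay between −0.19 and 0.17. All 25 of the 95% confidence intervals contained 0 and stayed within a 1.5-fold change in either direction. Over all 20393 probe sets, 19417 intervals contained 0 and 14323 stayed within that change. Among 149 probe sets of genes silent in blood cells, the counts were 146 and 145, so narrow intervals around 0 were usual for such probe sets. Most of the probe sets were dim: 18 of the 25 lay under the array's median intensity on all 4 arrays, and 6 lay above it on all 4. Those 6 belonged to Hoxb3, Hoxc6 (2 probe sets), Hoxc9, Hoxc13 and Hoxd9. In limma (adjusted p, Benjamini-Hochberg over 20393 probe sets) 0 of the 25 passed the threshold, beside 0% of all probe sets. At an unadjusted p under 0.05 the count was also 0, beside 4.79% of all (2.36% higher and 2.42% lower in Cre-GFP).

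Across the 4 arrays, probe sets of Kmt2a (MLL) and Aff1 (AF4), the genes joined in the fusion, did not pass, with log2 differences from −0.26 to −0.04. Whether any of these 5 probe sets detects the construct was not tested. Of 9 B lineage markers, 8 lay above the median on every array, the exception being Pax5, and their summed intensity was 29426 and 30044 in Cre-GFP against 34674 and 40185 in control. Neutrophil markers stood above the median in 7 or 8 of 8 cases on each array, and monocyte and macrophage markers in 5 of 8. By difference, 7 of 8 genes in each of these 2 myeloid lists had a higher mean in Cre-GFP, 0 passed, and 2 in each had an unadjusted p under 0.05 in limma, Csf1r (1.13 ± 0.34) and Lyz1 (1.36 ± 0.54) among macrophage genes and the granule proteins Mpo (1.25 ± 0.15) and Ctsg (0.99 ± 0.16). Of the 9 B lineage genes, 1 had a higher mean in Cre-GFP, 0 passed, and 3 had an unadjusted p under 0.05 in limma. These were Cd79b (−1.70 ± 0.43), Cd79a (−0.80 ± 0.21) and Ebf1 (−0.51 ± 0.15), all lower in Cre-GFP. Over all probe sets the share at that p was 4.79%. The summed intensity of the monocyte and macrophage list was 5681 and 3756 in Cre-GFP against 1458 and 3257 in control, with separate groups. That of the neutrophil list was 3631 and 4338 against 1407 and 5128, with overlapping groups. Of 14 stroma, fibroblast and endothelium markers, a source of HoxC and HoxD transcripts in other tissues, 1 or 2 lay above the median, Kdr on all 4 arrays and Col1a2 on 2, and their summed intensity ran from 604 to 669 in Cre-GFP and from 614 to 646 in control. In bulk RNA, fewer cells of a type and less RNA per cell cannot be told apart, and the part of such cells in the Hox values was not tested.

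RefSeq promoter windows (GRCm38.p6, 300 bases, from 250 before to 50 after a gene's start) were available for 13 genes of these clusters, 10 of them measured by their own probe set. The windows below are those of Hoxd9, the HoxD gene whose probe set lay above the median, of its neighbour Hoxd10, whose probe set had the lowest position of the 25, of Hoxb4, the HoxB gene best known from blood stem cells, and of Hoxb1, known to act on its own regulatory DNA together with a Pbx partner. Capitals mark matches on either strand to 4 motifs: the E-box CACGTG, a Pbx-Hox site TGATNNAT, the Meis core TGACAG and the TATA box TATAAA.
Hoxd9 (chr2:74697513-74697812, plus strand): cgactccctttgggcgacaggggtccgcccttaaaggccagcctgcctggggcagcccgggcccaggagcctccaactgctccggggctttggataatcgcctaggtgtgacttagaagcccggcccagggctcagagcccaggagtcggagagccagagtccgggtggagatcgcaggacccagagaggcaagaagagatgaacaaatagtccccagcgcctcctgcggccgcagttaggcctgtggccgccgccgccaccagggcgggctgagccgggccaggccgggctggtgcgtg
Hoxd10 (chr2:74691641-74691940, plus strand): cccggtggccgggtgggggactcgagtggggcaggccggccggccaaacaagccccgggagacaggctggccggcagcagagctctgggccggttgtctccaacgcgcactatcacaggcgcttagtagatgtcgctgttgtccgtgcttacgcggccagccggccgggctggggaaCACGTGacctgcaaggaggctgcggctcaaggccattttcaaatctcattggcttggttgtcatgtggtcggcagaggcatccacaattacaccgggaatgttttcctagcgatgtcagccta
Hoxb4 (chr11:96318017-96318316, plus strand): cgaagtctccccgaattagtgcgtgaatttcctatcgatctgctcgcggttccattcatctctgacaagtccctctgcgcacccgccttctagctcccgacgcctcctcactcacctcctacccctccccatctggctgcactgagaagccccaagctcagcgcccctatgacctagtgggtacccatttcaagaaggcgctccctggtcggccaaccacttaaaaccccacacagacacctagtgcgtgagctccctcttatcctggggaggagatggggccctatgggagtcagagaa
Hoxb1 (chr11:96365508-96365807, plus strand): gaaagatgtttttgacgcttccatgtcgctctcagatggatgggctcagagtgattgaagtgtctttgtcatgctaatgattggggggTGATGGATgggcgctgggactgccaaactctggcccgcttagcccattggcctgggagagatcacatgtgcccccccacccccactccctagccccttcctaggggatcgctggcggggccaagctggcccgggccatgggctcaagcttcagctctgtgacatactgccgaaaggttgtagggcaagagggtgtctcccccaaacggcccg
The windows of Hoxd9 and Hoxb4 held none of these letter strings, that of Hoxd10 held 1 E-box and that of Hoxb1 held 1 Pbx-Hox match. Over 14 windows of the 3 clusters, 5 held the E-box (35.7%, against 7.15% of 32851 windows of all genes), 3 the Pbx-Hox site (21.4% against 8.85%), 3 the TATA box (21.4% against 13.6%) and 0 the Meis core (against 19.2%). The windows with an E-box were all of HoxD genes (Hoxd1, Hoxd4, Hoxd10, Hoxd11 and Hoxd13), as were most of the 14 windows. Those of Hoxb1, Hoxb4, Hoxb8 and Hoxc4 held no E-box, so the matches came from HoxD only, while the share counts all 14 windows. The 14 windows had a median GC content of 58.7% against 52.7% over all, and a median of 13.5 CG dinucleotides against 7. A match is a description of letters and not a bound site.

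Where a probe set lies in its array's distribution is the only measure of detection that these values allow, since detection calls were not used here. Array medians were 6.41 to 6.45 on the log2 scale. The 25 probe sets had a median position at percentile 24.3, against 25.6 for 149 probe sets of genes silent in blood cells (olfactory and pheromone receptors, lens crystallins, hair keratins and others of single tissues), and 38.5 for 12 HoxA probe sets. Among all probe sets with 1 symbol, 47.3% lay above the median on all 4 arrays, against 6 of the 25. Of the 149 silent probe sets, 19 did so. The 95th percentile of the silent genes stood at 6.96 to 7.11, near the 60th percentile of all (58.7 to 60.8), and only Hoxc9 exceeded it on every array. The other 24 lay under that level on at least 1 array. Of the 149 silent probe sets, 7 exceeded it on all 4 arrays, as did 7597 of all 20393. A position above either level is therefore not by itself a sign of detection. Probes differ in how well they bind, so a position is no measure of RNA copies, and the background of RMA values compresses differences among dim probe sets.

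**Figure D1:**
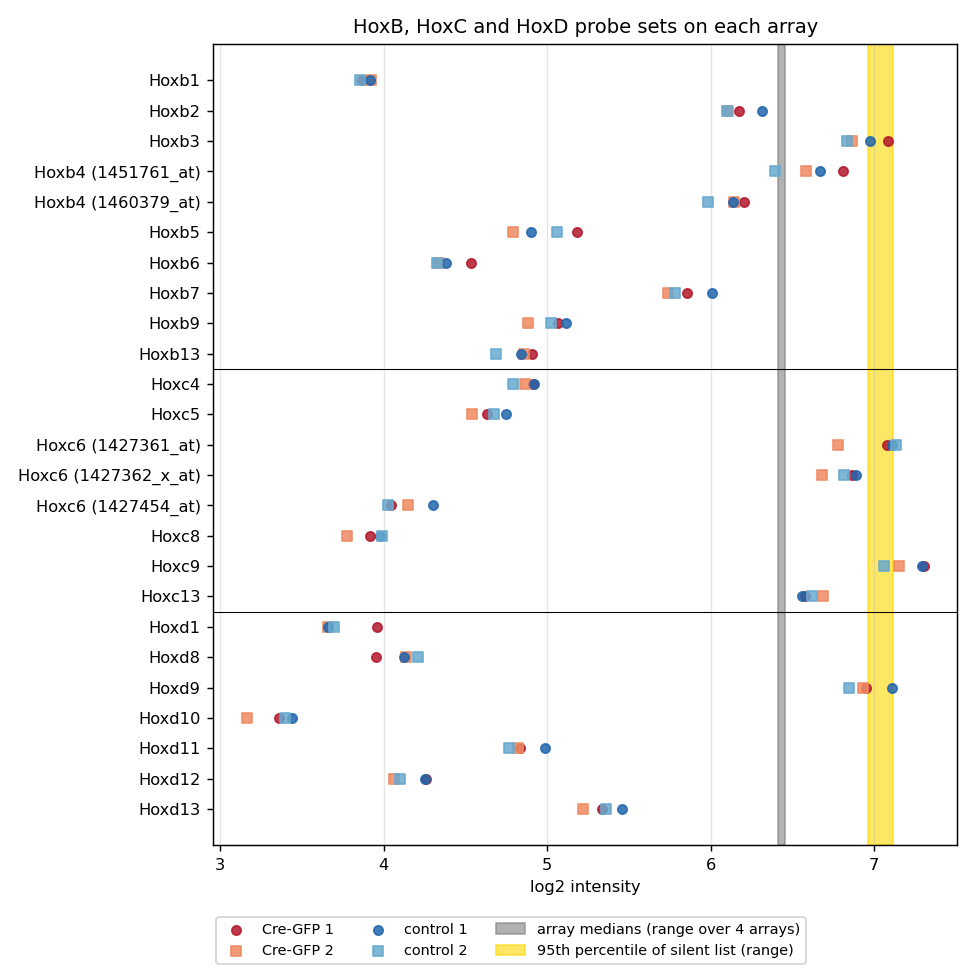
Log2 intensity (horizontal axis) of each of the 25 probe sets (vertical axis) on the 2 Cre-GFP (red) and 2 control (blue) arrays; the grey band is the range of the array medians and the yellow band that of the 95th percentile of genes silent in blood. Red and blue points overlap or lie close together for each gene, and 18 of the 25 lie left of the grey band on all arrays.

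**Figure D2:**
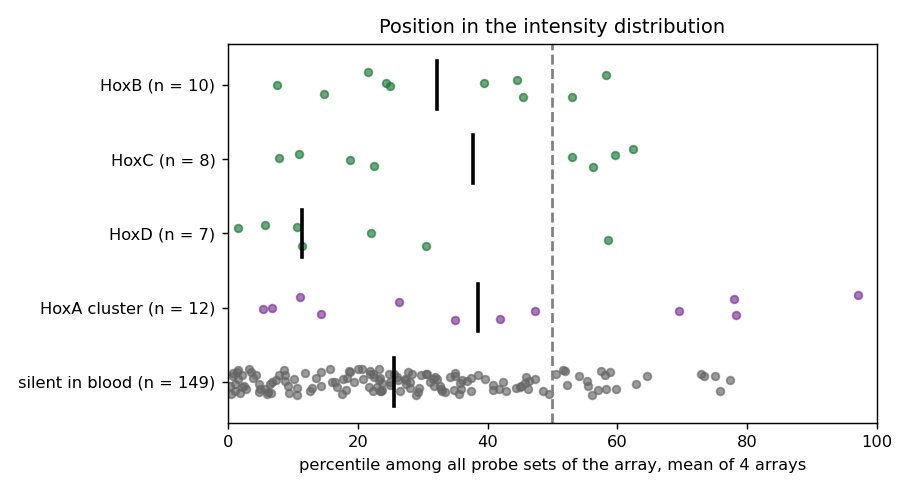
Percentile of each probe set among all probe sets of its array (horizontal axis, mean over 4 arrays) for the 3 clusters, HoxA and the silent genes; each point is a probe set, spread vertically at random, black bars are medians and the dashed line is the 50th percentile. HoxB, HoxC and HoxD points end near 60, while HoxA points go further right.

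In the HoxB cluster, on chromosome 11, the genes nearest the head end are Hoxb1 and Hoxb2, factors of hindbrain segments. On the log2 scale, Hoxb1 read 3.87 and 3.93 on Cre-GFP 1 and 2 against 3.92 and 3.85 on control 1 and 2, between percentiles 6.95 and 8.33 of the arrays. Hoxb2 read 6.18 and 6.11 against 6.31 and 6.10, just under the medians. The groups overlapped for both, with log2 differences of 0.01 ± 0.09 (SE, n = 2 per group) and −0.06 ± 0.13.

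Hoxb3 and Hoxb4 are the HoxB genes most tied to blood stem cells, and Hoxb4 is known to expand them when forced on. Hoxb3 read 7.08 and 6.87 on the Cre-GFP arrays and 6.98 and 6.83 on the control arrays, above the median on all 4 arrays, and its groups overlapped (0.07 ± 0.15). The brighter Hoxb4 probe set, 1451761_at, read 6.81 and 6.59 against 6.67 and 6.39. It lay above the median on 3 arrays and fell just short on control 2, and its difference, 0.17 ± 0.16 with a 95% interval from −0.23 to 0.56, was the highest of the 25. The second, 1460379_at, read 6.21 and 6.15 against 6.14 and 5.98. Its groups did not overlap, though the gap between Cre-GFP 2 and control 1 was slight next to the spread within control, and its difference was 0.11 ± 0.12. Both Hoxb4 probe sets therefore stood on the same side without a call (adjusted p = 1 for each in limma).

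Hoxb5, a marker of long-term stem cells in mouse marrow, read 5.18 and 4.79 on the Cre-GFP arrays and 4.90 and 5.06 on the control arrays, so its Cre-GFP arrays enclosed both controls. Without Cre-GFP 1 its difference of 0.01 ± 0.16 was −0.19, and without Cre-GFP 2 it was 0.20. Hoxb6, which can expand myelomonocytic progenitors, read 4.53 and 4.34 against 4.38 and 4.33 (0.08 ± 0.11). Hoxb7 read 5.86 and 5.74 against 6.01 and 5.78 (−0.10 ± 0.13). Each of these had overlapping groups and lay under the median on all arrays.

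The probe sets of Hoxb9 and Hoxb13, the genes at the tail end of the cluster, lay between percentiles 19.7 and 26.4. Hoxb13, best known from the prostate and the tail, read 4.91 and 4.86 on the Cre-GFP arrays and 4.84 and 4.69 on the control arrays. Its groups did not overlap, though Cre-GFP 2 and control 1 nearly met, and it differed by 0.12 ± 0.10. Hoxb9 differed by −0.10 ± 0.11 with overlapping groups.

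In the HoxC cluster, on chromosome 15, Hoxc4 has been described in lymphoid cells. It read 4.91 and 4.86 on the Cre-GFP arrays and 4.92 and 4.79 on the control arrays (0.03 ± 0.10), between percentiles 21.3 and 23.1. Hoxc5 read 4.63 and 4.54 against 4.75 and 4.67, lower on both Cre-GFP arrays than on either control, by −0.12 ± 0.10 in the mean. Hoxc8, a gene of trunk vertebrae, read 3.92 and 3.78 against 3.98 and 3.99, at or under percentile 8.97, and also lay lower in both Cre-GFP arrays (−0.14 ± 0.09).

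Hoxc6 was measured by 3 probe sets that disagreed in level. The brightest, 1427361_at, read 7.08 and 6.78 on the Cre-GFP arrays and 7.11 and 7.13 on the control arrays. Cre-GFP 2 stood apart from the other 3 arrays, and the difference, −0.19 ± 0.16 with an interval from −0.58 to 0.20, was the lowest of the 25. Leaving out Cre-GFP 2 gave −0.04, and leaving out Cre-GFP 1 gave −0.34. The second, 1427362_x_at, whose ID marks possible cross-hybridization, read 6.86 and 6.68 against 6.89 and 6.82 (−0.08 ± 0.14). The third, 1427454_at, read 4.04 and 4.15 against 4.30 and 4.03 (−0.07 ± 0.12), at or under percentile 13.2. Only the first had groups that did not overlap, and the 3 probe sets of this gene all had differences below 0 without a call.

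Hoxc9, which sets thoracic identity in the spinal cord, had the highest position of the 25 probe sets. It read 7.30 and 7.15 on the Cre-GFP arrays and 7.29 and 7.06 on the control arrays, between percentiles 60.1 and 63.9, and its groups overlapped (0.05 ± 0.16). Hoxc13, a regulator of hair keratins, read 6.58 and 6.69 against 6.56 and 6.62 (0.04 ± 0.13). It lay above the median on every array, but under the silent-gene level on all 4, and its groups overlapped too.

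In the HoxD cluster, on chromosome 2, whose high-numbered genes pattern limbs and genitals, 6 of the 7 probe sets lay under the median on all arrays. Hoxd9 was the exception, with 6.95 and 6.93 on the Cre-GFP arrays and 7.11 and 6.85 on the control arrays, and its controls enclosed both Cre-GFP arrays (−0.04 ± 0.15). Its neighbour Hoxd10, whose promoter window is printed above beside that of Hoxd9, read 3.36 and 3.17 against 3.44 and 3.39, at or under percentile 2.13. Both Cre-GFP values of Hoxd10 were lower (−0.15 ± 0.10). Hoxd13, the digit gene at the tail end, read 5.34 and 5.22 against 5.46 and 5.36 and did not overlap (−0.13 ± 0.11).

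The other 4 HoxD probe sets, Hoxd1, Hoxd8, Hoxd11 and Hoxd12, lay between percentiles 4.32 and 24.2 and had overlapping groups. Their differences ran from −0.12 for Hoxd8 to 0.13 for Hoxd1. For Hoxd1 this came from 1 array: Cre-GFP 1 read 3.96 and the other 3 read 3.66, 3.66 and 3.70, and without Cre-GFP 1 the difference was −0.02. The 3 probe sets naming a pair of Hox genes (Hoxb8 with Hoxb7, and Hoxd4 with Hoxd3 on 2) differed by −0.04 to 0.04, with no gene assigned.

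Groups that did not overlap were found for 7 of the 25 probe sets, 2 higher in Cre-GFP (Hoxb4 1460379_at and Hoxb13) and 5 lower (Hoxc5, Hoxc6 1427361_at, Hoxc8, Hoxd10 and Hoxd13). Over all probe sets 30.0% did not overlap, 15.4% higher and 14.6% lower, so the share of 7 in 25 was near the background. An exact permutation test of 2 arrays against 2 cannot give a two-sided p below 0.333. The median log2 difference was −0.04 over the 25 (0.04 in HoxB, −0.08 in HoxC and −0.05 in HoxD), against 0.00 over all probe sets tested, and without control 1 it was 0.04. The median absolute difference was 0.08, against 0.10 over all. Differences beyond 1 on the log2 scale, a 2-fold change, occurred in 0.613% of all probe sets and in 0 of the 25. Differences lay beyond 0.2 in 22.6% of all and in 0 of the 25. The level of 0.2 is just above the largest absolute difference of the 25, 0.19, so that count of 0 carries no weight. Over the 7930 probe sets with a mean under the 40th percentile, the median absolute difference was also 0.08. By this measure the 25 were no steadier than dim probe sets in general.

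The HoxA cluster served as the contrast, since its paralogs lie on the same arrays. By their brightest probe sets, Hoxa5 differed by 1.66 ± 0.18, Hoxa9 by 1.26 ± 0.18, Hoxa10 by 1.04 ± 0.29, Hoxa7 by 0.59 ± 0.18 and Hoxa11 by 0.32 ± 0.10, while Hoxa2, Hoxa3, Hoxa4 and Hoxa13 differed by 0.20, −0.05, −0.01 and −0.27, and none passed over all probe sets (lowest adjusted p = 0.24 in limma). Of the 12 HoxA probe sets, 5 had an unadjusted p under 0.05 in limma, beside 4.79% of all, and each was the brightest of its gene. A second Hoxa9 probe set, at a mean percentile of 78.0, was not among these, and its interval contained 0. By the brightest probe sets, the lower interval bounds of Hoxa5 and Hoxa9 lay above the highest upper bound of the 25, which was 0.56. For the second Hoxa9 probe set this was not so. The summed intensity of the monocyte and macrophage markers was also higher on the Cre-GFP arrays (5681 and 3756 against 1458 and 3257), with Lyz1 the brightest of them. In the mean 7 of 8 were higher, but Itgam, Fcgr1, Cd14 and Adgre1 differed by only 0.08, 0.07, 0.11 and −0.04. The part of such cells in the HoxA and Meis1 values was not tested.

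The log2 difference of each HoxA gene was also set against the mean difference of its measured HoxB, HoxC and HoxD paralogs, in 9 paralog groups. Each gene was taken by its brightest probe set. The HoxA gene's difference was higher by 1.72 for paralog 5, 1.28 for paralog 9, 1.20 for paralog 10, 0.69 for paralog 7, 0.36 for paralog 11 and 0.26 for paralog 2. It was lower by the same measure for paralogs 3, 4 and 13, at −0.12, −0.11 and −0.28. The mean differences of the paralogs themselves lay between −0.15 (paralog 10, which is Hoxd10 alone) and 0.10 (paralog 4). The paralogs of groups 2, 5, 7, 10 and 11 lay under the median on all arrays, where RMA values compress differences. The brightest probe sets of Hoxa2, Hoxa3, Hoxa4, Hoxa11 and Hoxa13 did so too. The exact permutation p was 0.333 for 8 groups, in both directions, and 0.667 for paralog 2 (adjusted p = 0.375 and 0.667), and 0.333 is the smallest p this test can give with 2 arrays a group.

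**Figure D3:**
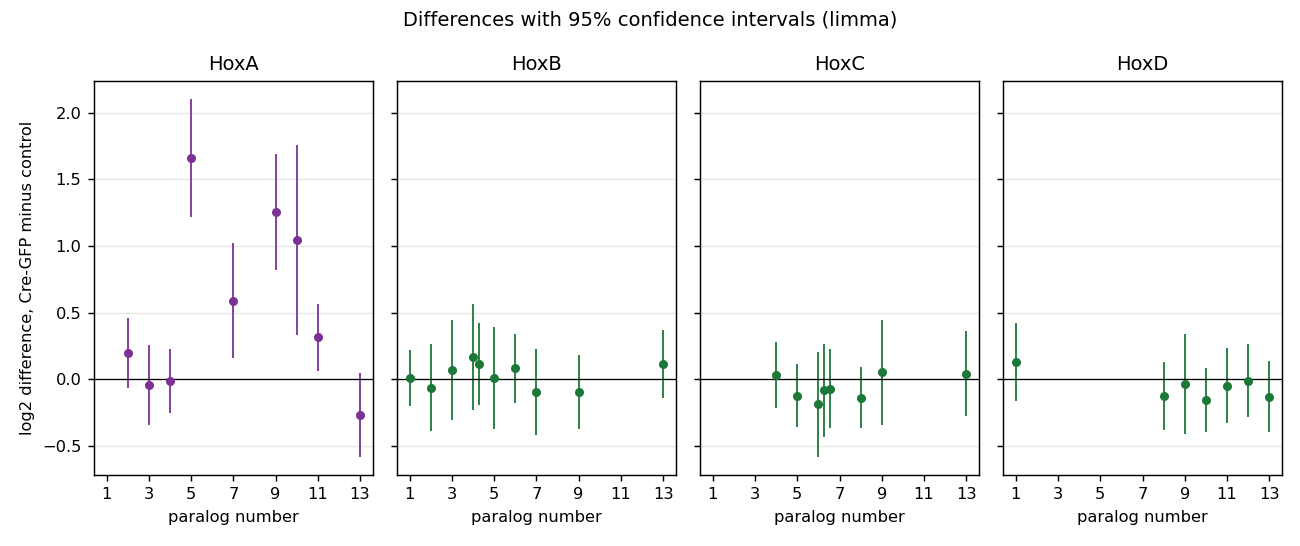
Log2 difference between Cre-GFP and control (vertical axis) by paralog number (horizontal axis) in the 4 Hox clusters, with HoxA genes by their brightest probe set and all probe sets of the others; bars are limma's 95% confidence intervals, n = 2 arrays per group. HoxB, HoxC and HoxD points lie between −0.19 and 0.17, and Hoxa5 and Hoxa9 lie above 1.

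Hox proteins bind DNA with partners of the Meis, Pbx and Pknox families. Of 8 such genes measured, 0 passed over all probe sets. Meis1 read 7.69 and 7.54 on the Cre-GFP arrays and 5.84 and 5.94 on the control arrays (1.73 ± 0.14), and Pknox1 6.24 and 6.39 against 5.99 and 5.91 (0.37 ± 0.13), both with separate groups. Pknox2, the third by p, differed by −0.11 ± 0.13.

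Of 36 measured regulators of Hox clusters (MLL complex, elongation factors, Polycomb, Cdx and retinoic acid genes), 0 passed and 2 had an unadjusted p under 0.05 by limma, near the share over all probe sets, 4.79%. These were Ezh2, the Polycomb methyltransferase that silences Hox genes, at 10.16 and 10.05 on the Cre-GFP arrays and 10.68 and 10.94 on the control arrays (−0.70 ± 0.17), and Psip1, which tethers MLL to chromatin, at 8.74 and 9.03 against 9.80 and 9.53 (−0.78 ± 0.20). Both lay lower in both Cre-GFP arrays. Cdx2, a homeobox activator of Hox genes, read 6.67 and 6.39 against 6.19 and 6.23 (0.32 ± 0.14). The list's median difference was −0.04 over its 68 probe sets.

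To see whether the clusters' surroundings moved, the 5 measured protein-coding genes on each side of each cluster were taken in RefSeq order. Of these 30 genes 0 passed, and 1 had an unadjusted p under 0.05 in limma by its brightest probe set, no more than the 4.79% over all probe sets. This was Nfe2, an erythroid and megakaryocyte transcription factor beside HoxC, at 5.87 and 6.54 on the Cre-GFP arrays and 5.52 and 5.17 on the control arrays (0.86 ± 0.24, adjusted p = 0.80). The genes between it and HoxC, Cbx5 and Hnrnpa1, differed by 0.28 ± 0.27 and −0.34 ± 0.16, on opposite sides. Next to HoxD, Evx2, a homeobox gene at the tail end of the cluster, read 6.34 and 6.24 against 6.29 and 6.24 (0.02 ± 0.12), and Mtx2 on the other side read 6.31 and 7.12 against 7.08 and 7.29 (−0.47 ± 0.28). By position, 28 of 48 neighbour probe sets lay above the median on all arrays, against 6 of the 25 Hox probe sets between them.

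**Figure D4:**
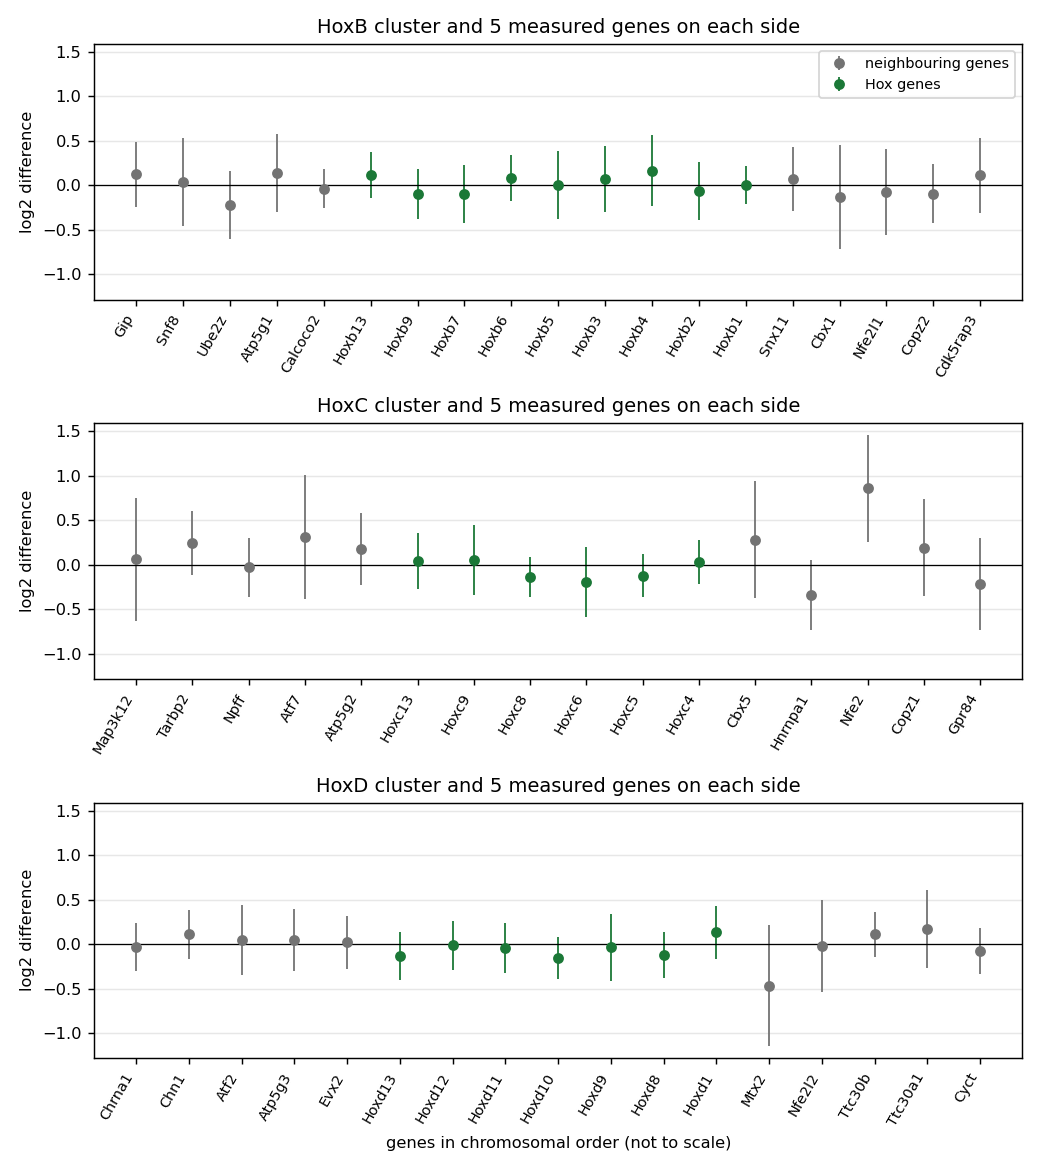
Log2 difference between Cre-GFP and control (vertical axis) for measured Hox genes (green) and the 5 measured genes on each side (grey), in order of gene start along the chromosome and not to scale; points are the brightest probe set of each gene and bars limma's 95% confidence intervals, n = 2 arrays per group. Green points stay near 0 in all 3 clusters, and of the grey points Nfe2 has an interval above 0.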

How the data were processed

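The authors deposited linear intensities, 1 per probe set and array, from RMA (no version stated), per the submitters' processing notes. Their log2 was analysed with no further normalization. Symbols came from the platform annotation (1 symbol for 20393 of 22690, several for 691, none for 1606). RefSeq served for gene order and promoter sequences.

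The comparison used limma 3.58.1 under R 4.3.3 (intensity trend, two-sided), adjusted by Benjamini-Hochberg over 20393 probe sets, at a threshold of 0.05. Differences are Cre-GFP minus control, with limma's standard error. On simulated data of this size the fit called 31 of 100 probe sets changed by 1 and 95 of 100 changed by 2 on the log2 scale. It also called 9 unchanged probe sets. The simulated noise was independent between probe sets and arrays. The real arrays gave 0 calls though 125 probe sets differed by more than 1, so these rates may not hold for them.

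Values are given for probe sets above the median in a group. They are also given for up to 5 in each direction with separate groups and the smallest p, and for 13 preset genes. Of these 13, Hoxb8 and Hoxd4 had no probe set of their own, so no array values are given for them. From other lists, values are given for up to 3 by p. Members, lists and floors were chosen with earlier results of these data known. Alternatives changed the floor, the filter on dim values, the log offset, normalization, trend, probe set choice, a replicate block and single arrays. The number of arrays limits the precision. Hoxb1, Hoxb9, Hoxd1, Hoxd8, Hoxc6 1427454_at, Cbx5 and Evx2 were named after their values were seen.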

Additional observations from a re-analysis of the deposited data

How the results depend on the processing

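No HoxB, HoxC or HoxD probe set passed in limma under any of the 12 alternatives (lowest adjusted p = 0.72), and none had an unadjusted p under 0.05. Not all 25 were fitted in each alternative. Without the dimmest 40% 9 remained, with 1 probe set per gene 22, and without IDs that mark shared probes 23. Over all alternatives the 25 differences stayed between −0.34 and 0.30, and 15 of the 25 changed sign in at least 1, so no direction is claimed for them. Without single arrays the median difference ran from −0.087 to 0.043. Over all probe sets, 0 passed in the main comparison and 0 to 25 when single arrays were left out, with 25 without control 1 and 1 without control 2. The count without overlap, 7, was 4 with dim values raised to the 20th percentile (24.5% of all probe sets), 2 of 9 without the dimmest 40% (29.6% of all), 9 after a repeat of quantile normalization (31.8% of all), and 15 to 18 with single arrays left out, where 63.2% to 67.1% of all probe sets did not overlap. The count above the floor, 6, was 1 at the 60th percentile, 0 at the 75th and 1 at the silent-gene level. With the replicate number as a block, 0 of the 25 and 0 of all passed (1547 at an unadjusted p under 0.05, against 976); same-numbered arrays deviated together (r = 0.36 across probe sets), but 2 pairs do not settle a pairing. Signal near background limits what can be read: 24 of the 25 lay under the silent-gene level on at least 1 array.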

Other observations

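Within each group, the array numbered 1 read higher than the array numbered 2 for most of the 25 probe sets: 21 of 25 in Cre-GFP, with a median gap of 0.12 on the log2 scale, and 19 of 25 in control, with a median gap of 0.10. Over all probe sets with 1 symbol the shares were 57.5% and 52.6%, with median gaps of 0.04 and 0.01. Other dim values also read higher on the arrays numbered 1. The median of 133 genes silent in blood was 5.22 against 5.04 in Cre-GFP and 5.23 against 5.19 in control. The 20th percentile of the arrays was 4.76 against 4.69 and 4.75 against 4.71. The direction was therefore not particular to these Hox genes. The median absolute gap over the 25 was 0.14 in Cre-GFP and 0.13 in control, against 0.16 and 0.15 over all probe sets. The median absolute difference between group means was 0.08 over the 25 and 0.10 over all. That difference averages 2 arrays a group, so it is not a like measure of a gap between single arrays. Why the arrays numbered 1 read higher was not tested.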
